A study of Bos taurus with 20 samples.

Results

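The genes described here belong to the amino acid transporter families SLC1, SLC3, SLC6, SLC7, SLC36, SLC38 and SLC43 on a bovine oligonucleotide array. A gene was a member when the array file named it with one of these family prefixes, whatever its signal. This gave 56 genes of 22532, read by 146 of 61325 non-control probes with 121 distinct sequences: 7 genes of SLC1, 2 of SLC3, 19 of SLC6, 12 of SLC7, 4 of SLC36, 10 of SLC38 and 2 of SLC43. SLC7A6OS is among them by name only, being the opposite-strand neighbor of SLC7A6 and no transporter. The family name does not make every other member an amino acid carrier. The members include the creatine carrier SLC6A8 and 3 monoamine carriers, and the substrate of SLC43A3 was not examined here.

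Gene expression was measured on 20 one-color arrays, 4 per group, in cells of bovine antral follicles of 3 to 6 mm. The groups were theca cells (TH) scraped off the follicle wall, mural granulosa cells (GC), cumulus cells (CC), which surround the oocyte, and oocytes, all labeled immature, and CC detached after 4 h of in vitro maturation (IVM) of the complexes. All material came from ovaries collected at slaughter, and neither a genotype nor an animal age was given in the sources used here. The study's methods call the replicates of each group biological, while the number of ovaries or animals behind each array was not given in the sources used here, and the p-values measure the spread between these samples.

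Amino acid transporters fall into a few working types. Uptake carriers driven by the sodium or proton gradient (SLC1, SLC6, SLC36, SLC38) load cells with amino acids, exchangers (SLC1A4, SLC1A5 and the SLC7 light chains, which reach the membrane bound to a heavy chain of SLC3) trade one amino acid for another, and SLC43 carriers are facilitated. In the follicle, CC and oocyte are coupled by gap junctions, and CC are known for taking up amino acids such as alanine, glycine and histidine and passing them to an oocyte that carries them poorly on its own.

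The probes that carry the main differences are printed here as read on the array, 5′ to 3′, because each value below is the binding to these 60-base oligonucleotides; some are shown by their first 30 bases only. Transcript spans are on bosTau6 (UMD 3.1), from the array files. The first 4 are probes of genes with large differences between oocyte and CC, on chr18:43435073-43466267 (SLC7A9), chr18:10355405-10385409 (SLC38A8) and chr5:34145240-34198996 (SLC38A1).
SLC7A9 probe: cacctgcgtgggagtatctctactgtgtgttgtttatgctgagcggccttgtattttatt
SLC38A8 probe 1: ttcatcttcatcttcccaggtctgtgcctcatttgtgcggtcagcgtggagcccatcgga
SLC38A8 probe 2: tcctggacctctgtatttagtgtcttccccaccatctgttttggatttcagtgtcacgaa
SLC38A1 probe: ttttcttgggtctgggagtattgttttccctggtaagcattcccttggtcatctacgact

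The next are probes of 3 genes that were higher in CC after IVM, SLC7A11 (chr17:19729366-19808282), SLC1A4 (chr11:63337655-63367589) and SLC38A2 (chr5:34028553-34042996). SLC38A2 also had the most negative difference between oocyte and CC of all members.
SLC7A11 probe 1: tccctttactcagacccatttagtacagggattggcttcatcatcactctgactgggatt
SLC7A11 probe 2: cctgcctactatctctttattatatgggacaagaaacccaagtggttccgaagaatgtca
SLC1A4 probe, first 30 bases: gggaaaaatgccaccctctcattgtctgat
SLC38A2 probe, first 30 bases: gttggcaaagagtgctacaccgtttcaatg

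The last are the probes of SLC7A6 and SLC38A3, the members whose probes gave opposite results between oocyte and CC. The SLC7A6 probes belong to a short transcript span (chr18:35763843-35774916) and a long one (chr18:35763843-35794542), and the SLC38A3 probes to 1 transcript (chr22:50702769-50717523).
SLC7A6 short span, probe 1, first 30 bases: ggtctctagcctgactgagatctctaaaaa
SLC7A6 short span, probe 2, first 30 bases: aattagcctcaaatcacctgtaatctaccc
SLC7A6 long span, probe 1, first 30 bases: agttgttgcctgttgcttgcagcactgaac
SLC7A6 long span, probe 2, first 30 bases: agtctgtctgttggttttataactgcaaga
SLC38A3 probe 1, first 30 bases: gttgcctcagatcccacccaagccccttat
SLC38A3 probe 2, first 30 bases: tgtccctgaggcccctttcaggcactgggg

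Levels are log2 processed signal with the 75th percentile of each array set to 0, so 0 is a fairly bright spot and a difference of 1 is a doubling. Levels of different genes are not compared, since each probe binds with its own efficiency. A gene counted as above background on an array when at least 1 of its probes was marked so by the scanner software. Between 49.3% and 68.8% of probes were above background per array, with the lowest share on oocyte array 2, and no spot was saturated. Genes at background read higher on that array than on the other oocyte arrays: SLC36A3, above background on no array, read -8.84, -6.23, -8.93 and -7.99 in oocytes. The labels were checked against marker genes (summed linear signal, log2). The 7 oocyte markers were 8.10 to 8.48 in oocytes and -0.81 to 1.65 in CC, where 6 of the 7 were above background on 4 arrays. The 5 granulosa and cumulus markers were 9.55 to 9.69 in CC and 1.75 to 2.22 in oocytes. There 3 of the 5 were above background on 4 arrays, and CYP19A1 on 0. The part of cumulus RNA in the oocyte values was not tested. In bulk RNA, fewer cells of a type and less RNA per cell cannot be told apart.

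Of the 56 members, 43 (76.8%, against 71.7% of all genes) were above background on all 4 arrays of at least 1 group. On all 20 arrays 14 were so (25%, against 42.3%), and 3 (SLC36A3, SLC6A16 and SLC6A3) on none (5.4%, against 9.2%). The oocyte had the most members above background on 4 arrays, 33 (58.9%, against 54.1% of all genes), and GC the fewest, 24 (42.9%, against 57.7%). TH and CC had 27 each and CC after IVM 25. All 6 light chains were above background on 4 arrays in oocytes, against 3 in CC and 4 in GC. In oocytes SLC7A6 counted through its long-span probes only, and SLC7A10 with most of its probes near background. The light chain SLC7A5, which the array files name otherwise, is not in this count. Of the 10 sodium-coupled neutral carriers of SLC38, 5 were so in oocytes and 7 in each of the other groups. Over TH, GC, CC and oocytes, 43 of the 56 members differed in the limma F-test (adjusted p under 0.05), where 71.3% of all genes did.

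**Figure D1:**
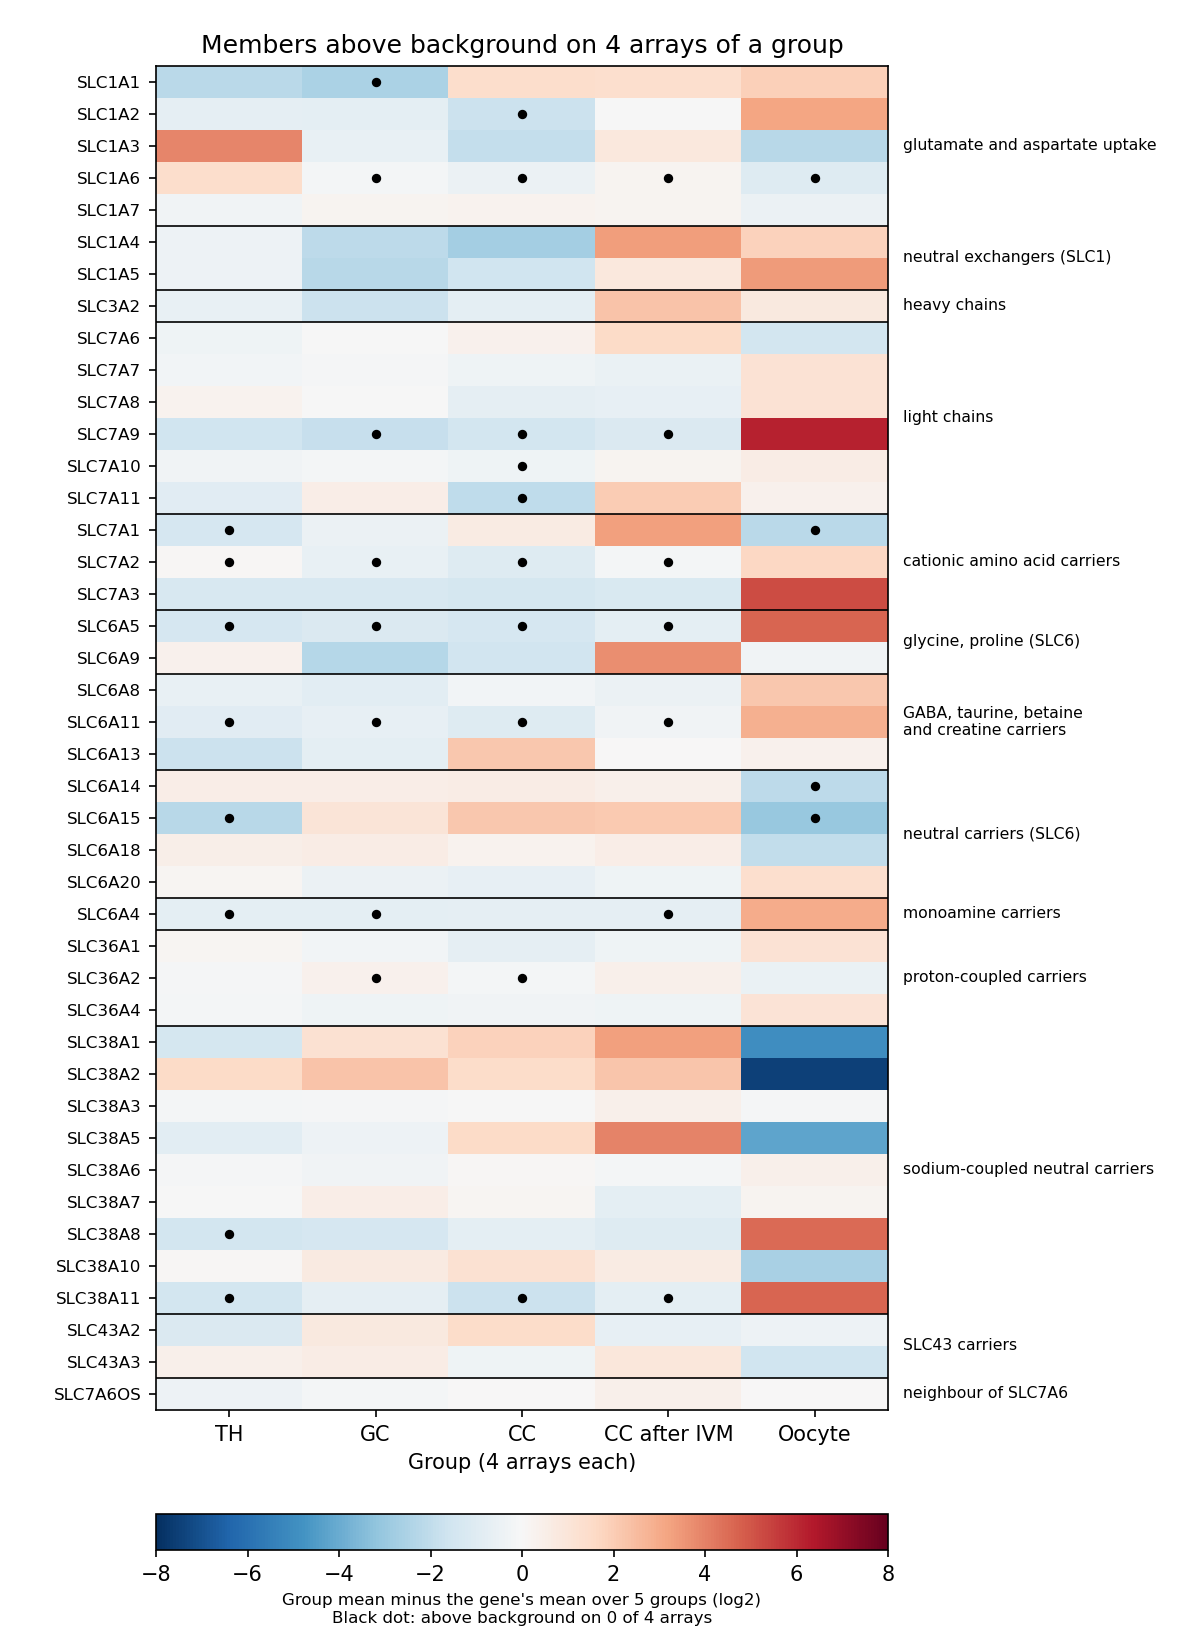
Group means of 42 of the 43 members above background on 4 arrays of at least 1 group (rows, ordered by type of carrier) in the 5 groups (columns), each as the difference from that gene's mean over the 5 groups on the log2 scale; a black dot marks a group in which the gene was above background on 0 of 4 arrays. The oocyte column holds both the darkest blue (SLC38A2, SLC38A1) and the darkest red (SLC7A9, SLC7A3), and several of its red cells are dots in the other columns.

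The oocyte was compared with CC to see which transporters each partner of the complex carries transcripts for. Of the 56 members, 23 were higher in oocytes (41.1%, against 31.8% of all genes) and 14 were lower (32% of all genes were lower). Counting only genes whose brighter group was above background on all 4 arrays, 22 were higher (27.8% of all genes) and 11 lower (28.1%). The median difference over the 56 members was -0.01, against -0.40 over all genes. It was 0.80 over the 16 members above background on all 16 arrays and 0.15 over the 10015 such genes. By type, both neutral exchangers of SLC1, 5 of 6 light chains, 2 of 5 cationic carriers and 2 of 3 glycine and proline carriers were higher in oocytes with the brighter group measured, and 4 of 10 SLC38 carriers and both SLC43 carriers were lower. The glycine and proline carriers counted as higher include the probes filed as SLC6A9. These lie away from the RefSeq locus of that gene, so what they read is uncertain. Without oocyte array 2 the members lower in oocytes numbered 24 rather than 14, and with normexp background correction 13 were higher and 32 lower, as were 5223 and 14709 of all 22532 genes.

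**Figure D2:**
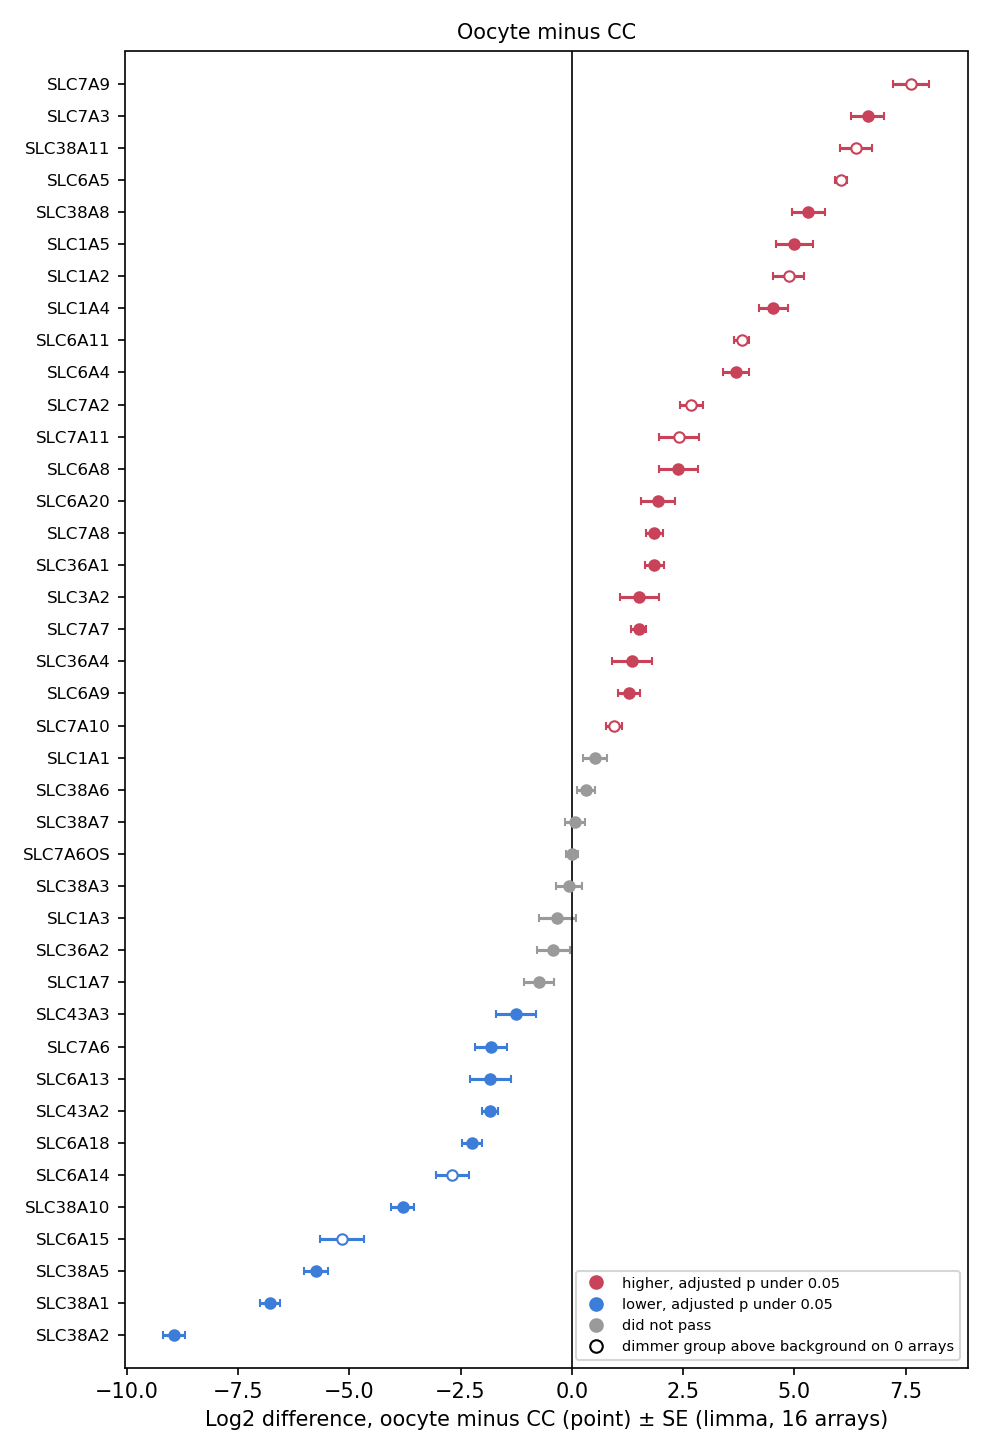
Log2 difference, oocyte minus CC (point), ± SE from the limma fit of 16 arrays, for 40 of the 41 members above background on all 4 arrays of oocytes or CC, sorted by the difference; red and blue points passed adjusted p under 0.05, and open points have the dimmer group above background on 0 arrays. The differences run from -8.93 (SLC38A2) to 7.62 (SLC7A9).

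Among the sodium-coupled neutral carriers, SLC38A2, SLC38A1 and SLC38A5 were far lower in oocytes than in CC. SLC38A2 (SNAT2), a carrier for alanine and other small neutral amino acids, read 4.67, 4.43, 4.78 and 4.50 in CC and -4.16, -4.92, -3.93 and -4.33 in oocytes, where it was above background on 3 arrays. All CC values lay above all oocyte values, and the difference was -8.93 (SE 0.24, limma adjusted p = 1.1e-13). It was -9.09 on the first slide and -8.77 on the second, each slide holding 2 arrays of each cell type. No named difference past the threshold among TH, GC, CC and oocytes changed sign within either slide.

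SLC38A1 (SNAT1), which prefers glutamine among the small neutral amino acids and lies next to SLC38A2 on chromosome 5, read 0.23, 0.15, 0.24 and -0.22 in CC. On the oocyte arrays SLC38A1 read -6.82, -6.29, -6.64 and -7.00, and was above background on 1 of them. The groups were far apart, with a difference of -6.78 (SE 0.22, adjusted p = 6e-13; -6.74 and -6.83 within the slides). SLC38A5 (SNAT5), which carries glutamine, asparagine and histidine in exchange for protons, read 1.81, 1.92, 1.94 and 1.91 in CC and -3.66, -3.92, -3.95 and -3.87 in oocytes. The SLC38A5 values hardly varied within either group, and the difference was -5.74 (SE 0.27, adjusted p = 3.5e-11; -5.65 and -5.83 within the slides).

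SLC38A10, a less well known member of the family, was lower in oocytes (difference -3.80, SE 0.25, adjusted p = 2e-09). Its 4 probes gave -4.64 to 0.06, and 3 of them passed. SLC38A6 read -0.69, -0.80, -0.67 and -0.88 in CC and -0.49, -0.58, -0.30 and -0.40 in oocytes, with a difference of 0.32 that did not pass (SE 0.21, adjusted p = 0.2), although the ranges were apart. SLC38A9, the lysosomal arginine sensor upstream of mTORC1, had a difference of 1.04 (SE 0.62, adjusted p = 0.16). SLC38A7, a lysosomal glutamine carrier, had a difference of 0.06 (SE 0.22, adjusted p = 0.8).

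Other members of the same family showed the opposite difference. SLC38A8 (SNAT8) read 0.20, -0.97, -0.87 and -0.71 in oocytes and -5.79, -6.99, -5.81 and -5.01 in CC, where it was above background on 2 arrays. No CC value came near the oocyte values, and the difference was 5.32 (SE 0.37, adjusted p = 3e-09; 6.01 and 4.62 within the slides). Its probe 1 printed above gave 8.33 and its probe 2 gave 2.80, so the size, and not the direction, depended on the probe. Over all 4 spots that carry these sequences the differences ran from 1.96 to 8.33. SLC38A11 read -1.04, -1.13, -0.88 and -1.01 in oocytes and was above background on 0 of 4 CC arrays, so that it was at least 21.0-fold higher in oocytes (adjusted p = 3e-10).

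**Figure D3:**
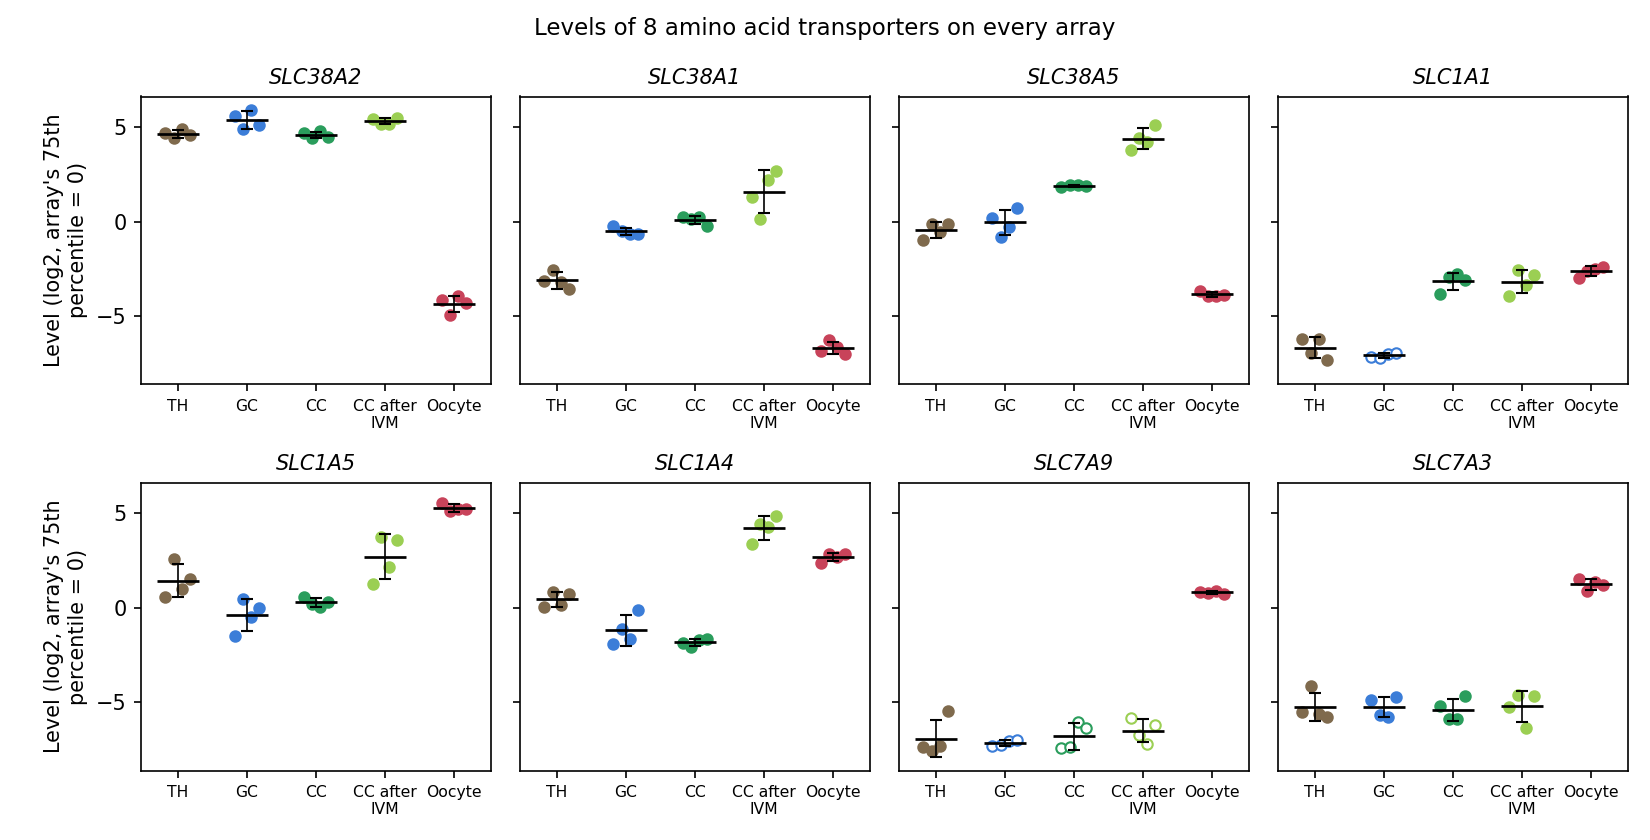
Level of 8 members on each of the 20 arrays (circles; vertical axis, log2 with the 75th percentile of each array at 0) by group, with the mean (bar) and SD (whiskers) of 4 arrays; open circles mark groups in which the gene was above background on 0 arrays. SLC38A2, SLC38A1 and SLC38A5 lie lowest in oocytes, SLC1A5, SLC7A9 and SLC7A3 lie highest there, SLC1A4 is highest in CC after IVM, and SLC1A1 is high in CC and oocytes alike.

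The neutral exchangers ASCT1 (SLC1A4) and ASCT2 (SLC1A5), which trade alanine, serine, cysteine and, for ASCT2, glutamine, were higher in oocytes. SLC1A5 read 5.57, 5.12, 5.22 and 5.24 in oocytes and 0.58, 0.20, 0.07 and 0.31 in CC. The difference for SLC1A5 was 5.0 (SE 0.41, adjusted p = 2.4e-08; 4.95 and 5.04 within the slides). SLC1A4 read 2.39, 2.85, 2.71 and 2.87 in oocytes and -1.86, -2.09, -1.71 and -1.64 in CC. No array of one group reached the other for SLC1A4 either, and the difference was 4.53 (SE 0.32, adjusted p = 4.4e-09; 4.59 and 4.46 within the slides).

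Among the light chains, SLC7A9 (b0,+AT), which exchanges cystine and cationic amino acids for neutral ones, read 0.83, 0.80, 0.91 and 0.74 in oocytes. It was above background on 0 of 4 arrays in GC, CC and CC after IVM and on 1 in TH, and was at least 75.2-fold higher in oocytes than in CC (fitted difference 7.62, SE 0.40, adjusted p = 1.3e-10). Its usual heavy chain SLC3A1 (rBAT) was above background on 0 oocyte arrays and on 2 CC arrays. SLC3A2 (CD98, 4F2hc), the heavy chain of the other light chains here, read -1.20, -3.00, -2.73 and -2.87 in oocytes and -4.50, -2.87, -4.31 and -4.19 in CC. These ranges overlapped through CC array 2, and the difference of 1.52 (SE 0.45, adjusted p = 0.0072) failed the threshold in 2 of 31 alternatives.

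SLC7A7 (y+LAT1), SLC7A8 (LAT2) and SLC7A11 (xCT, the cystine and glutamate exchanger) were also higher in oocytes. SLC7A8 read -3.00, -3.20, -3.17 and -3.03 in oocytes and -4.76, -4.86, -4.92 and -5.28 in CC, a difference of 1.86 (SE 0.19, adjusted p = 4.2e-07). SLC7A7 differed by 1.50 (SE 0.16, adjusted p = 6e-07), but 1 of its probes gave 2.98 and the other 0.02. SLC7A11 was measured on 4 oocyte arrays, was at background on every CC array, and differed by at least 2.95-fold (adjusted p = 0.00019), a direction that turned with normexp background correction (-0.10). SLC7A10 (Asc-1) passed with 0.95 (SE 0.18, adjusted p = 0.00027), the median over 4 probes of which 1 gave 7.23, above background on all oocyte arrays, and the other 3 gave 0.07 to 0.95 near background.

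LAT1 (SLC7A5), the large neutral amino acid carrier, was not a member because the array files name its probes LAT, but it completes the light chains and was read from them (chr18:13341371-13370494). SLC7A5 read 1.44, 1.76, 1.42 and 1.38 in CC and -2.44, -1.87, -2.29 and -1.77 in oocytes. The groups did not overlap, and the difference was -3.59 (SE 0.30, adjusted p = 2.4e-08; -3.75 and -3.43 within the slides). SLC43A2 (LAT4), a facilitated carrier of branched-chain amino acids, was lower in oocytes (difference -1.84, SE 0.18, adjusted p = 1.4e-07).

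SLC7A6 (y+LAT2) could not be given as 1 value. Over all 4 probes the median difference was -1.81 (SE 0.36, adjusted p = 0.00032), but the 2 probes of the short span gave -4.91 and -4.72 and were above background on 0 oocyte arrays, while the 2 probes of the long span gave 1.85 and 1.36. On the short-span probe 1, SLC7A6 read -2.90, -2.01, -3.15 and -1.65 in CC and -7.10, -6.28, -7.86 and -8.11 in oocytes. On the long-span probe 1, SLC7A6 read -4.38, -4.15, -4.46 and -4.46 in CC and -2.71, -2.44, -2.41 and -2.47 in oocytes. Each probe separated the groups without overlap, in opposite directions (adjusted p = 2.5e-07 and 0.0019).

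SLC38A3 (SNAT3), a carrier of glutamine, asparagine and histidine, had a median difference of -0.07 (SE 0.29, adjusted p = 0.85), made of -1.71 on probe 1 (adjusted p = 0.0043) and 1.57 on probe 2 (adjusted p = 0.00048). Probe 2 of SLC38A3 was above background on 0 CC arrays and 2 oocyte arrays, so the second value rests on few measured spots.

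**Figure D4:**
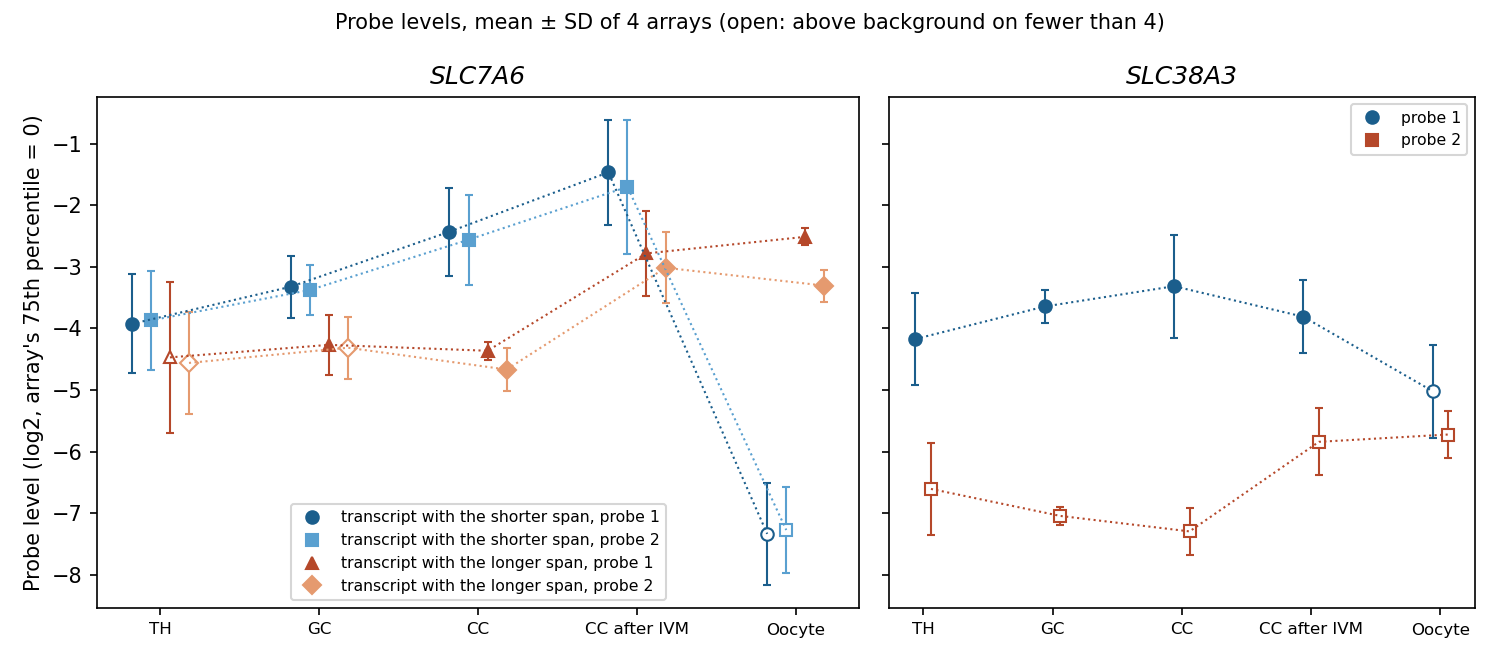
Level of each probe of SLC7A6 (left) and SLC38A3 (right) by group, mean ± SD of 4 arrays (log2, 75th percentile of each array at 0); open symbols mark groups in which the probe was above background on fewer than 4 arrays, and dotted lines only join the points of 1 probe. From CC to oocyte the short-span probes of SLC7A6 fall to -7.34 and -7.28 while the long-span probes rise to -2.51 and -3.30, and the probes of SLC38A3 also move in opposite directions.

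Carriers of cationic amino acids and of glycine were among the largest oocyte excesses. SLC7A3 (CAT3), an arginine and lysine carrier, read 1.55, 0.88, 1.38 and 1.19 in oocytes and -5.19, -5.88, -5.85 and -4.66 in CC. The SLC7A3 difference was 6.65 (SE 0.38, adjusted p = 2.7e-10; 6.75 and 6.54 within the slides), with 9.89 on 1 probe and 3.40 on the other. SLC7A2 (CAT2) was at least 1.56-fold higher in oocytes (adjusted p = 1.6e-07), and the probes filed under the older name CAT2, outside the rule, gave 3.29 (SE 0.30, adjusted p = 7.5e-08). SLC7A1 (CAT1), the widespread cationic carrier, was above background on 2 CC arrays and 0 oocyte arrays.

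SLC6A5 (GlyT2), a sodium and chloride coupled glycine carrier, read -1.44, -1.43, -1.35 and -1.26 in oocytes and was above background on 0 arrays of each other group. It was at least 16.5-fold higher in oocytes than in CC (adjusted p = 1.2e-14). The probes filed as SLC6A9, the name of GlyT1, lie at chr13:38064363-38160996, whereas RefSeq places SLC6A9 on chromosome 3, so what they read is uncertain. They read -2.75, -2.45, -2.47 and -2.49 in oocytes and -4.25, -4.39, -3.11 and -3.54 in CC, and SLC6A9 so named differed by 1.28 (SE 0.25, adjusted p = 0.00028; 1.72 and 0.85 within the slides). Of 2 unnamed transcripts at the RefSeq locus of SLC6A9, ENSBTAT00000011454 (chr3:102623730-102655397) was lower in oocytes (difference -1.49, SE 0.22, adjusted p = 1.9e-05). The other, ENSBTAT00000007938, did not pass the limma F-test over TH, GC, CC and oocytes (adjusted p = 0.24).

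Several carriers of GABA, creatine and monoamines were also higher in oocytes. SLC6A8, the creatine carrier, differed by 2.39 (SE 0.44, adjusted p = 0.00016). SLC6A4, the serotonin carrier, differed by 3.69 (SE 0.29, adjusted p = 1.6e-08) and was above background on 1 CC array. SLC6A11 (GAT3) was above background on 0 arrays of every other group and at least 3.45-fold higher in oocytes than in CC (adjusted p = 1.6e-11). SLC6A6 (TauT), the taurine carrier, was above background on 0 arrays of CC and of oocytes, so no difference could be measured.

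SLC6A13 (GAT2) went the other way, with -3.28, -2.09, -3.96 and -2.51 in CC and -4.94, -4.81, -5.05 and -4.38 in oocytes (difference -1.83, SE 0.46, adjusted p = 0.0024). SLC6A15 (B0AT2), a carrier of branched-chain amino acids and proline, was measured on all 4 CC arrays and on 0 oocyte arrays, which made it at least 8.21-fold lower in oocytes (adjusted p = 1.6e-07). SLC6A14 (ATB0,+), a broad neutral and cationic carrier, was at least 1.79-fold lower in oocytes (adjusted p = 9.4e-06). Of its 2 probes 1 passed, and they gave -4.85 and -0.53. SLC6A18 was lower (difference -2.25, SE 0.23, adjusted p = 3.1e-07), a median of 1 bright probe at -4.0 and 1 that was above background on 0 arrays of any group.

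The glutamate carriers were split. SLC1A1 (EAAC1), which carries glutamate, aspartate and cysteine, read -3.80, -2.93, -2.78 and -3.09 in CC and -3.00, -2.60, -2.51 and -2.40 in oocytes. The ranges overlapped and the difference of 0.52 (SE 0.27, adjusted p = 0.1) did not pass. SLC1A2 (GLT-1) was measured on 4 oocyte arrays but on 0 CC arrays, a difference of at least 8.23-fold (adjusted p = 5.1e-09). The proton-coupled carriers SLC36A1 (PAT1) and SLC36A4 (PAT4) differed by 1.85 (SE 0.21, adjusted p = 1.1e-06) and 1.36 (SE 0.45, adjusted p = 0.014), but SLC36A1 turned to -0.21 with normexp background correction and the SLC36A4 ranges overlapped.

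Setting the oocyte against each of TH, GC and CC, 21 members were higher than in all 3 (26.6% of all genes were) and 10 were lower (24.5%). With the brighter groups above background on all arrays, 20 were higher (24% of all genes) and 8 lower (20.9%). Without oocyte array 2 the 10 became 21, and with normexp background correction 11 were higher and 29 lower. With normexp, 5420 of all 22532 genes were higher and 14475 lower in oocytes than in TH, and 5003 and 15211 than in GC. Counts of all genes without oocyte array 2 are not given here. SLC38A2 differed by -8.98 from TH and by -9.71 from GC, and SLC38A1 by -3.57 and -6.17. SLC7A9 was 7.75 higher than in TH and at least 57.9-fold higher than in GC. These comparisons share the oocyte arrays. Against TH alone 27 members were higher (32.6% of all genes) and 14 lower (32.1%), and against GC alone 25 were higher (30.7%) and 18 lower (37.9%). SLC1A1 was not among the 21, being 4.04 higher in oocytes than in TH and at least 5.30-fold higher than in GC, but close to CC.

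GC and CC are the mural and cumulus branches of the granulosa layer, and few genes of any kind differed between them. Of the 56 members, 3 were higher in GC (4.6% of all genes) and 4 lower (5.27%), shares near those of all genes, or 2 (3.74%) and 4 (5.09%) with the brighter group above background on 4 arrays. The median over the members was 0.15, as over all genes (0.15). SLC1A1 read -7.14, -7.19, -7.02 and -6.94 in GC, at background on every array, against -3.80 to -2.78 in CC. SLC1A1 was thus at least 3.69-fold lower in GC (fitted difference -3.92, SE 0.27, adjusted p = 7.5e-07; -3.80 and -4.04 within the slides).

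SLC6A13 was lower in GC (difference -2.95, SE 0.46, adjusted p = 0.00074) and above background on 2 GC arrays. SLC38A5 read 0.21, -0.81, -0.26 and 0.73 in GC, all below the 4 CC values, with a difference of -1.93 (SE 0.27, adjusted p = 0.00038). SLC7A11 ran the other way: it read -3.68, -3.83, -2.42 and -4.74 in GC, was at background on every CC array, and differed by at least 3.36-fold (adjusted p = 0.0016). SLC7A8 (0.69, SE 0.19, adjusted p = 0.035) and SLC43A2 (-0.64, SE 0.18, adjusted p = 0.031) lost the call in 13 and 11 of 31 alternatives. The oocyte markers were above background on 4 arrays for 6 of 7 genes in CC and 2 of 7 in GC, and SLC1A1 and SLC6A13 were also above background on 4 oocyte arrays; the part of oocyte RNA in the CC values was not tested. The 4 smooth muscle and pericyte markers summed to 2.47 to 4.29 in GC and 1.10 to 1.86 in CC, and the 5 theca markers to 4.71 to 6.69 and 4.61 to 4.98, with the collagens COL1A2 and COL3A1 at means of 2.47 and 0.93 in GC and -3.25 and -3.25 in CC. The part of such cells in the GC values, that of SLC7A11 included, was not tested.

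TH and GC are the layers of the follicle wall on either side of the basement membrane. Of the 56 members, 6 were higher in TH (11.8% of all genes) and 5 lower (14.5%), and the same numbers held with the brighter group above background on 4 arrays (11.2% and 12.5% of all genes). With the replicate number as a block, 6 were higher and 7 lower (2707 and 3400 of all genes), SLC38A10 (-0.62) and SLC38A7 (-0.56) being added. The differences, SEs and p-values below come from the fit without this block. The median was -0.14 over the members and -0.22 over all genes. SLC1A3 (GLAST), a glutamate and aspartate carrier, read 1.56, 1.60, 1.10 and 1.47 in TH and -4.43, -1.82, -3.36 and -2.79 in GC. The spread of SLC1A3 in GC was wide but did not reach TH, and the difference was 4.53 (SE 0.42, adjusted p = 1e-06; 4.70 and 4.36 within the slides).

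The exchangers SLC1A5 (1.82, SE 0.41, adjusted p = 0.0036) and SLC1A4 (1.65, SE 0.32, adjusted p = 0.0012) and the probes filed as SLC6A9 (2.60, SE 0.25, adjusted p = 1.5e-06) were also higher in TH. SLC1A6 (adjusted p = 0.018), measured on 4 TH and 0 GC arrays, also passed, but so close to background that no fold is given, and its direction turned with normexp background correction. SLC38A1 was lower in TH, with -3.14, -2.55, -3.18 and -3.59 against -0.25, -0.50, -0.63 and -0.68 in GC (difference -2.60, SE 0.22, adjusted p = 4.4e-07). SLC43A2 was lower (difference -1.95, SE 0.18, adjusted p = 8.5e-07), SLC38A2 also (difference -0.73, SE 0.24, adjusted p = 0.036), and SLC6A15 at least 2.41-fold lower (adjusted p = 0.00015). SLC7A11 was lower (difference -1.49, SE 0.45, adjusted p = 0.022), with overlapping ranges. The calls of SLC38A2 and SLC7A11 were lost in 8 and 6 of 31 alternatives.

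TH was scraped tissue, and its markers of endothelium (summed level 0.67 to 2.17, against -3.51 to -2.30 in GC) and of smooth muscle and pericytes (7.64 to 7.75, against 2.47 to 4.29) were also higher than in GC, with 3 of 4 and 4 of 4 genes above background on all arrays. The 4 leukocyte markers summed to -0.14 to 0.88 in TH and -2.78 to -0.15 in GC. The part of these cells in the TH values was not tested.

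TH was also set against CC, and 11 members were higher in TH (14.4% of all genes) and 9 lower (17.4%), of which 8 (13.1%) and 8 (16.2%) had the brighter group above background on 4 arrays. SLC1A3 again had the largest difference (5.80, SE 0.42, adjusted p = 4.1e-08; 5.75 and 5.85 within the slides), followed by SLC1A4 (2.28, SE 0.32, adjusted p = 4.6e-05). SLC6A13 (-3.90, SE 0.46, adjusted p = 7.3e-06), SLC1A1 (-3.52, SE 0.27, adjusted p = 7.4e-08) and SLC38A1 (-3.21, SE 0.22, adjusted p = 2.5e-08) were lower in TH than in CC, and SLC6A15 was at least 5.36-fold lower (adjusted p = 5e-06). Within the slides SLC6A13 differed by -4.68 and -3.11, SLC1A1 by -3.22 and -3.82, and SLC38A1 by -3.03 and -3.39.

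CC after 4 h of IVM were compared with CC taken directly from the follicle. Of the 56 members, 24 were higher after IVM (30.3% of all genes) and 3 lower (15.6%). Of these 24, 12 were above background on all 4 arrays after IVM (13.3% of all genes), and the other 12 were at background on most or all arrays of both groups. The 3 lower members were all measured in CC (15.1% of all genes). The median difference was 0.53 over the members and 0.37 over all genes, and 0.38 and 0.05 over the 23 members and 11892 genes above background on all 8 arrays. With quantile normalization, under which the median of all genes was 0.01, 9 members were higher and 3 lower, against 2790 and 3664 of all genes (6823 and 3504 without it).

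**Figure D5:**
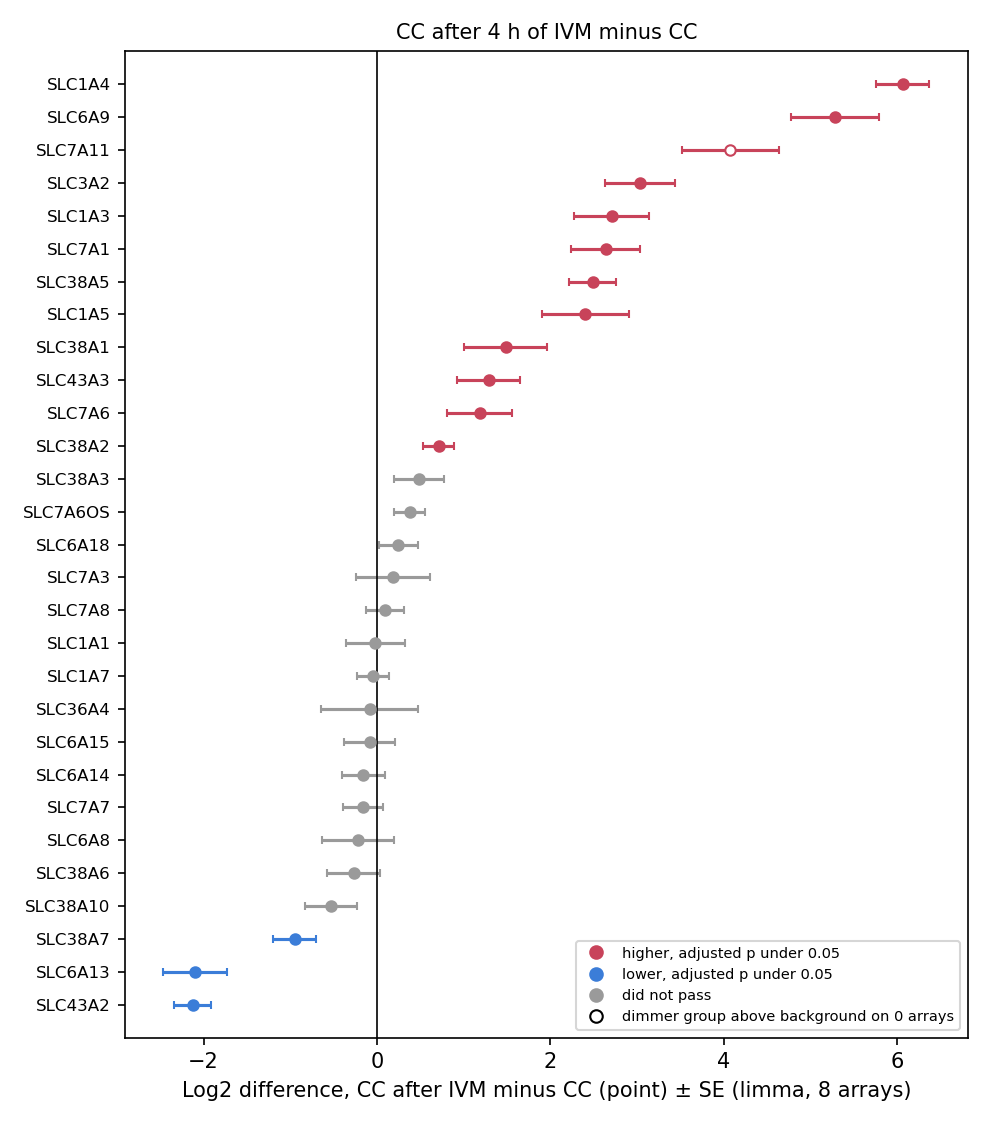
Log2 difference, CC after 4 h of IVM minus CC (point), ± SE from the limma fit of 8 arrays, for the 29 members above background on all 4 arrays of either group, sorted by the difference; red and blue points passed adjusted p under 0.05, and the open point has CC above background on 0 arrays. SLC1A4 (6.06) and the probes filed as SLC6A9 (5.28) head the plot, and SLC43A2 (-2.13) closes it.

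SLC1A4 rose most. It read -1.86, -2.09, -1.71 and -1.64 in CC and 3.36, 4.44, 4.30 and 4.85 after IVM. The difference for SLC1A4 was 6.06 (SE 0.30, adjusted p = 3.1e-06), and its probes gave 5.73 and 6.40. The probes filed as SLC6A9 rose by 5.28 (SE 0.50, adjusted p = 6.2e-05), from -3.11 on the highest CC array to between 0.04 and 2.57. The 2 transcripts at the RefSeq locus of SLC6A9 also rose, ENSBTAT00000007938 (chr3:102635311-102654308) by 1.39 (SE 0.21, adjusted p = 0.001) and ENSBTAT00000011454 by 0.86 (SE 0.18, adjusted p = 0.0048).

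Both subunits of the cystine exchanger rose. SLC7A11 read -2.91, -3.49, -1.39 and -0.93 after IVM and was at background on every CC array before it, and was at least 9.41-fold higher (fitted difference 4.07, SE 0.56, adjusted p = 5e-04). SLC3A2 read -1.08, -1.70, -0.46 and -0.50 after IVM and -4.50, -2.87, -4.31 and -4.19 in CC, without overlap (difference 3.03, SE 0.40, adjusted p = 0.00041). SLC7A5, the LAT1 subunit of SLC3A2 outside the rule, read 4.25, 5.78, 4.92 and 5.82 after IVM, all above the CC values of 1.38 to 1.76, with a difference of 3.69 (SE 0.34, adjusted p = 5.1e-05).

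SLC38A5 read 3.78, 4.42, 4.23 and 5.10 after IVM against 1.81 to 1.94 in CC, a difference of 2.49 (SE 0.27, adjusted p = 0.00012). SLC7A1 rose by 2.64 (SE 0.40, adjusted p = 0.00087) and went from 2 to 4 arrays above background. SLC1A3 rose by 2.71 (SE 0.43, adjusted p = 0.0012) and SLC1A5 by 2.40 (SE 0.50, adjusted p = 0.0052), the latter from at most 0.58 in CC to 1.25, 3.77, 2.18 and 3.58. Smaller rises were seen for SLC38A1 (1.49, SE 0.48, adjusted p = 0.03), SLC43A3 (1.29, SE 0.36, adjusted p = 0.02), SLC7A6 (1.19, SE 0.38, adjusted p = 0.029) and SLC38A2 (0.71, SE 0.18, adjusted p = 0.013). The SLC38A1 and SLC7A6 ranges overlapped, and these calls were lost in 10 and 5 of 20 alternatives, as was that of SLC38A2 in 3.

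SLC43A2 fell from 3.80, 3.59, 3.88 and 3.74 in CC to 1.63, 1.15, 1.82 and 1.90 after IVM, with no overlap (difference -2.13, SE 0.21, adjusted p = 7.7e-05). SLC6A13 fell by 2.09 on the log2 scale (SE 0.37, adjusted p = 0.002) and SLC38A7 by 0.95 (SE 0.25, adjusted p = 0.015), the latter with 1 probe at -2.38 and the other at background. SLC1A1, in contrast, read -3.96, -2.57, -3.34 and -2.81 after IVM, within its CC range or close to it (difference -0.02, SE 0.34).

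No slide held both CC and CC after IVM, so slide and treatment cannot be told apart. For the same reason a random block for slide cannot take a slide difference out of this comparison. With that block 31 members were higher and 4 lower, as were 10317 and 4990 of all 22532 genes. The oocyte markers were above background on all arrays for 2 of 7 genes after IVM and 6 of 7 before it. The 4 leukocyte markers summed to -2.99 to -1.28 in CC and -0.45 to 0.92 after IVM, with 2 above background on all arrays of each group, PTPRC at 0 in both and CD3E at 0 in CC, and the 4 endothelial markers to -3.90 to -3.63 and -2.48 to -0.93, with 1 above background on all arrays of each group, CDH5 at 0 in both and PECAM1 at 0 in CC. The part of these cells in the differences was not tested. AREG, a marker of cumulus maturation, was above background on 0 CC arrays and on 4 after IVM, and HAS2 read -6.31 to -4.79 before and 1.50 to 2.77 after, whereas PTX3, the other such marker on the array, had means of -0.66 before and -0.77 after.

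Other genes of amino acid handling were taken as lists. Of 21 other amino acid and peptide carriers on the array, 8 were higher (38.1%, against 31.8% of all genes) and 3 lower (14.3%, against 32%) in oocytes than in CC, with a median of 0.48. The mitochondrial carriers SLC25A22 (glutamate, 3.08, SE 0.26, adjusted p = 3.3e-08), SLC25A44 (branched-chain amino acids, 2.83, SE 0.13, adjusted p = 1.9e-11) and SLC25A15 (ornithine, 2.58, SE 0.27, adjusted p = 3.6e-07) led the rises. The mitochondrial serine carriers SFXN2 (-2.52, SE 0.18, adjusted p = 4.8e-09) and SFXN1 (-2.01, SE 0.31, adjusted p = 3.4e-05) and the vesicular glutamate carrier SLC17A7 (-2.19, SE 0.21, adjusted p = 1.7e-07) were lower. After IVM 5 of the 21 were higher (23.8%, against 30.3% of all genes) and 8 lower (38.1%, against 15.6%) in CC. The higher ones named by the rule were SLC25A15 (1.11, adjusted p = 0.014) and, on at most 1 array above background, SLC32A1 (1.28, adjusted p = 0.047) and SLC17A8 (0.89, adjusted p = 0.035). The largest falls were those of the lysosomal cystine carrier CTNS (-2.55, adjusted p = 0.00012), SFXN2 (-1.88, adjusted p = 4.3e-05) and SLC25A22 (-1.75, adjusted p = 0.0035).

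Of 28 genes of amino acid sensing by mTORC1, the growth kinase complex that reads lysosomal and cytosolic amino acids, 13 were higher (46.4%, against 31.8% of all genes) and 6 lower (21.4%, against 32%) in oocytes than in CC, with a median of 0.38. The Rag GTPases differed in direction, with RRAGC at 2.90 (SE 0.13, adjusted p = 1.5e-11), RRAGD at 2.32 (SE 0.15, adjusted p = 1.3e-09) and RRAGB at -7.51 (SE 0.26, adjusted p = 1.1e-12). SESN3, a Sestrin, was higher by 2.45 (adjusted p = 2.9e-07), and LAMTOR4 (-1.58, adjusted p = 7.6e-07) and MLST8 (-0.96, adjusted p = 0.00017) were lower. After IVM 4 of the 28 were higher (14.3%, against 30.3% of all genes) and 13 lower (46.4%, against 15.6%), with a median of -0.47. SESN2, a leucine sensor of this pathway, rose by 2.26 (SE 0.33, adjusted p = 0.00071), RHEB by 0.87 (adjusted p = 0.0038) and SEH1L by 0.79 (adjusted p = 0.0076). RRAGD fell by 3.31 (SE 0.17, adjusted p = 3.2e-06), DEPDC5 by 2.52 (adjusted p = 0.00093) and SESN1 by 2.42 (adjusted p = 0.00011).

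The amino acid response runs from the kinase GCN2 through the transcription factor ATF4, which is known to act on genes of serine synthesis and on transporters such as SLC7A11, SLC7A5 and SLC3A2. Of its 19 genes on the array, 12 were higher (63.2%, against 30.3% of all genes) and 0 lower (against 15.6%) in CC after IVM, with a median of 1.42 against 0.37 over all genes. The inhibitor TRIB3 rose by 7.48 (SE 0.27, adjusted p = 6.9e-07), and the serine synthesis enzymes PSAT1 by 6.77 (SE 0.34, adjusted p = 3.1e-06) and PSPH by 5.87 (SE 0.21, adjusted p = 6.9e-07). Between oocyte and CC, 7 were higher (36.8%, against 31.8% of all genes) and 5 lower (26.3%, against 32%). PSPH (4.93, adjusted p = 5.4e-10), PSAT1 (3.38, adjusted p = 9.9e-06) and MTHFD2 (2.29, adjusted p = 2.3e-07) were higher in oocytes, whereas PHGDH, which opens serine synthesis, was above background on 0 oocyte arrays and at least 6.11-fold lower (adjusted p = 2.3e-06). ATF3 (-3.54, adjusted p = 4.5e-06) and VLDLR (-3.10, adjusted p = 1.2e-08) were lower as well.

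Connexins form the gap junctions between CC and oocyte. Of 18 on the array, 5 were higher (27.8%, against 31.8% of all genes) and 4 lower (22.2%, against 32%) in oocytes than in CC. GJC1 (4.77, SE 0.16, adjusted p = 1.2e-12) and GJA4, the connexin of the oocyte side (4.30, SE 0.33, adjusted p = 1.1e-08), were higher. GJA1, the main connexin between CC (-7.16, SE 0.19, adjusted p = 9.8e-14), was lower, and GJA5, above background on 3 CC and 0 oocyte arrays, was at least 1.05-fold lower (adjusted p = 0.0018). After IVM 8 were higher (44.4%, against 30.3% of all genes), of which 3 were above background on all 4 arrays (16.7%, against 13.3%), and 1 was lower, with GJA5 at 4.78 (SE 0.22, adjusted p = 2.3e-06) and GJA10 at 1.45 (adjusted p = 0.032), the last above background on 2 arrays, and GJA4 at -0.58 (adjusted p = 0.048).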

How the data were processed

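Total RNA (200 ng per array) from TH, GC, CC, CC after 4 h of IVM and oocytes was labeled with Cy3 and hybridized by the authors to a custom bovine Agilent array, 4 arrays per group. The authors deposited the Feature Extraction 10.7.3.1 output, in which the intensity of each spot is given after background subtraction and detrending, with no scaling between arrays. They also deposited a table of log2 values, found here to be log2 median pixel intensity minus the array median within 5e-09, without background subtraction.

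From the deposited intensity, control and outlier spots (at most 23 per array) were left out, log2 was taken, the 75th percentile over all non-control probes of the array was subtracted, and the median over the spots of a gene was used. Gene names were missing for 9779 of the 61325 probes; 782 got one through RefSeq accessions, giving 22532 genes or transcripts. Samples were grouped by their titles. Linear models of limma 3.58.1, moderated with eBayes (R 4.3.3), were fitted to the oocyte, CC, GC and TH arrays together (16) and, separately, to the 8 arrays of CC and CC after IVM, with Benjamini-Hochberg adjustment over all 22532 genes and a threshold of 0.05. The script was tested on simulated data. Tables and figures used the R package data.table (1.17.8), Python 3.11.15, pandas 2.3.3, numpy 2.4.6 and matplotlib 3.10.9. The number of arrays limits the precision.

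Where a group was above background on 0 of its arrays, the fold is a bound: the mean of the bright group against, per array, the higher of the dim value and the lowest signal of a probe above background. That lowest signal is the dimmest such probe of the whole array, whatever its gene. The bound therefore holds for this floor only and is no confidence limit. TH, GC, CC and oocyte replicates 1 and 2 were on one slide and 3 and 4 on another, and CC after IVM on a slide of its own. Deviations from the group means of the 4 same-numbered TH and GC arrays correlated at 0.20, 0.32, 0.39 and 0.44. The labels name no shared collection, and same-numbered arrays also shared a slide. A shared origin and a shared slide therefore cannot be told apart here, and the pairing is not established. The differences, SEs and p-values of TH against GC come from the fit without pairs. Counts with the replicate number as a block are given beside them.

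The members and lists were chosen with earlier results of these data known. The genes given in full were 19 transporters of known follicular or general interest, the up to 8 largest rises and falls per comparison among members that passed the threshold, did not overlap between groups and were above background on all 4 arrays of the brighter group, members whose probes were called in opposite directions, and the up to 3 largest rises and falls of each gene list. Other members named for a count or a contrast were chosen after their values were seen. Alternatives were other scalings (quantile, array median, percentile of detected probes), normexp background correction with offset 50, the deposited table, other probe summaries, a filter on dim genes, a joint fit of 20 arrays, replicate and slide blocks, each slide alone, array weights, the methods' analysis of variance with Tukey comparison, and leaving out each array. Asking the brighter group to be above background on all 4 arrays was added after seeing the data. SLC43A1 and the protein and promoter sequences were not analysed here. A few genes that the naming rule or the counts include are not reported here by name or in the figures.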

Additional observations from a re-analysis of the deposited data

Results flagged for a closer look

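Among 111 groups of 4 arrays examined for the members named above, 12 held 1 array whose level lay apart from the other 3 by Dixon's test of the gap over the range. Chance flags about 1 in 20 groups. In oocytes these were array 1 for SLC3A2 (-1.20, the others at -2.73 or below), array 1 for the probes filed as SLC6A9 (-2.75) and array 4 for SLC36A1 (-4.28). In CC they were array 2 for SLC7A5 (1.76), SLC7A7 (-1.91) and SLC38A10 (-1.59), and in CC after IVM array 2 for SLC7A7 (-1.21). In TH they were array 4 for SLC36A1 (-4.71), array 2 for SLC7A3 (-4.15), array 3 for SLC38A10 (-3.67) and array 2 for SLC1A6 (-6.05). In GC it was array 2 for SLC6A18 (-1.04).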

How the results depend on the processing

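Of 1739 recomputations of the 63 named differences past the threshold, 1633 kept direction and call, 101 lost the call and 5 changed sign. The causes were not tested unless given.

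Members higher and lower in oocytes than in CC numbered 23 and 14: 13 and 32 with normexp, 28 lower with the deposited table, 23 lower with array weights, and 13 to 24 lower on leaving out each array (24 without oocyte array 2). Of all genes, 7209 were lower: 14709 with normexp, 12467 with the deposited table and 11432 with array weights. The higher ones numbered 7154: 5223, 7263 and 7728. Counts of all genes on leaving out an array are not given here. Higher and lower than in each other cell type (21 and 10): 11 and 29 with normexp, 24 lower with the deposited table, 20 lower with array weights, 8 to 21 lower on leaving out each array (21 without oocyte array 2). Counts of all genes for this joint rule under these settings are not given here. Higher in GC than in CC (3): 1 with the deposited table, 1 with the brightest probe, 5 with the replicate block, 0 within either slide, 5 with array weights, 5 with the Tukey comparison, 2 to 5 on leaving out each array (5 without GC array 1). Of all genes, 1037 were higher: 627 with the deposited table, 1087 with the brightest probe and 1108 with the replicate block. They numbered 98 and 181 within the slides and 2021 with array weights. Lower in GC (4): 1 within each slide, where each group keeps 2 arrays, and 8 with array weights. Of all genes, 1188 were lower: 85 and 268 within the slides and 1893 with array weights. Higher in TH than in GC (6): 3 within slide 1. Lower in TH (5): 3 within either slide, 3 to 6 on leaving out each array (3 without TH array 4). Of all genes, 2669 were higher in TH (1327 within slide 1) and 3268 lower (937 and 1185 within the slides). Higher after IVM (24): 9 with quantile normalization, with or without the rule on the brighter group, 48 with normexp, 12 with the filter on dim genes, 12 with the rule on the brighter group, 14 to 24 on leaving out each array (14 without CC array 1, 15 without CC array 3 or CC after IVM array 4). Of all genes, 6823 were higher: 2790 with quantile normalization, 14758 with normexp and 3261 with the filter.

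Named differences that changed sign, with one of the signs past the threshold, were, between oocyte and CC, SLC7A6 (1.85, brightest probe) and, with normexp, SLC7A11 (-0.10), SLC38A9 (-0.56), SLC36A1 (-0.21) and SLC38A7 (-0.53); between TH and GC with normexp, SLC1A6 (-0.000667); and after IVM, with normexp, SLC1A1 (0.34), SLC6A8 (0.52), SLC38A9 (0.47), SLC38A8 (0.55), SLC6A14 (0.36) and GJA4 (0.23), with the deposited table SLC38A8 (0.30), and with quantile normalization SLC6A5 (-0.018). Scaling moved the median of all genes between oocyte and CC from -0.40 to 0.02 (quantile) or -1.23 (normexp), and after IVM from 0.37 to 0.01 or 0.57.

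Apart from TH with GC, not every same-numbered pair of arrays correlated above 0.1 in its deviations from the group means (-0.26 to 0.35), and the best-correlated of the 4 arrays of another group carried the same number in 30 of 80 cases, so those numbers were not taken to pair samples. With the replicate block, 24 members were higher and 14 lower in oocytes than in CC, 5 higher in GC than in CC, and 16 higher and 3 lower after IVM. Over all genes these counts were 7165 and 7241, 1108, and 4153 and 2896. Signal near background limits the rest: 18 members had some probe sequences above background on 4 arrays of a group and others not, and 13 had none.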
